A study of Mus musculus with 72 samples.

Results

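The aminoacyl-tRNA synthetases were followed as 35 named genes in mouse liver RNA sequencing. They were taken from a list of 20 cytosolic and 15 mitochondrial enzymes and looked up by Ensembl identifier. All 35 were among the 51912 genes of the count table, and all 35 were among the 19362 that passed the filter on low counts. Lars2, the mitochondrial leucine enzyme, is on no list here because the rule leaves it out as a gene that collects ribosomal-like reads. Livers came from DBA/2J and C57BL/6J mice, which are inbred strains, of both sexes. The mice ate a Low Protein, Medium Protein or Control diet from 10 weeks of age for 13 weeks, and livers were frozen at 23 weeks after a 16 h fast at about 22 °C. Strain, sex and diet gave 12 groups of 6 livers, 72 libraries of polyadenylated RNA in all. The labels give no protein content of the diets and name no transgene or deletion in any mouse.

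A synthetase joins its amino acid to the matching transfer RNA, the step that fixes which amino acid a codon is read as. The cytosol and the mitochondrion mostly use separate enzymes, although Kars and Gars each encode both forms. When an amino acid runs short, uncharged transfer RNA activates the kinase GCN2, which phosphorylates eIF2 and raises translation of the transcription factor ATF4. ATF4 is known in cultured mammalian cells to switch on Asns, which makes asparagine, together with transporters and many cytosolic synthetases.

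ATF4 binds with C/EBP proteins to an element that is searched for here as TGATGNAA on either strand. RefSeq promoter windows of build GRCm38.p6, from 250 bases before to 50 after the start of a gene, were at hand for 26 of the 35 synthetases. Cars, Hars, Hars2, Lars, Nars, Pars2, Rars, Vars and Wars had no window and were not searched. The element was found in 5 of 13 cytosolic genes with a window (Aars, Gars, Iars, Tars and Yars) and in 0 of 13 mitochondrial genes. Over all genes with a window it was found in 1219 of 27025 genes, 4.51%. The stretches below, written 5′ to 3′ on the strand of the gene, show the match upstream of the start in the 3 synthetases that have one there and in Asns, the best known target. Capitals mark the match. In the synthetases the element lies on the opposite strand, so it reads as its reverse complement, and in Asns it lies on the gene's own strand.
Aars, alanine, chr8:111033704-111033763, plus strand: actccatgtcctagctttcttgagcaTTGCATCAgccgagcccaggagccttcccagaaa
Gars, glycine, chr6:55037945-55038000, plus strand: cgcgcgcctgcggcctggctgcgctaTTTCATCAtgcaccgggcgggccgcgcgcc
Tars, threonine, chr15:11399659-11399699, minus strand: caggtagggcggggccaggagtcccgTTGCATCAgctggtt
Asns, chr6:7693210-7693258, minus strand: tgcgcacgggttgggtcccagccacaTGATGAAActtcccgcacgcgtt
A match describes these letters in this window and is not a measured site of binding.

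Total counts ran from 26.9 to 38.4 M per library, with a median of 32.4 M. Hepatocyte markers dominated every group, with Alb at a mean of 48708 CPM, against 0.0157 CPM for the muscle gene Ckm. CPM here is the count scaled to a common library size by TMM, which sets that size by the bulk of the genes. In 4 male libraries, 4 ribosomal-like genes took 7.19 to 28.3% of counts, against at most 3.41% in any other library. They were Control C57BL/6J male replicates 1 and 6, Medium Protein C57BL/6J male replicate 6 and Control DBA/2J male replicate 4. Results without these 4 libraries are given where calls of synthetases changed, an alternative chosen after seeing the data. Some animal codes within a group share their number and differ only in the letter N or R. The labels do not say what that means, nor how the livers were grouped into cages or litters.

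Per kb of transcript, which allows genes to be compared, the median was 11.1 CPM per kb for the 8 enzymes of the multi-synthetase complex (Dars, Eprs, Iars, Kars, Lars, Mars, Qars and Rars), a cytosolic particle that holds them together. It was 8.39 CPM per kb for the 12 cytosolic enzymes outside the complex and 4.05 CPM per kb for the 15 mitochondrial ones. Eprs, the enzyme for glutamate and proline, was highest at 31.6 CPM per kb, ahead of Aars at 24.0, Dars (aspartate) at 21.1 and Nars (asparagine) at 19.9. Mars2, the mitochondrial methionine enzyme, was lowest at 0.503 CPM per kb. Between the highest and the lowest of the 12 group means the level differed by 1.13 to 2.19 times, with a median of 1.39. Cars, the cysteine enzyme, was the 1 gene past 2 times.

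**Figure D1:**
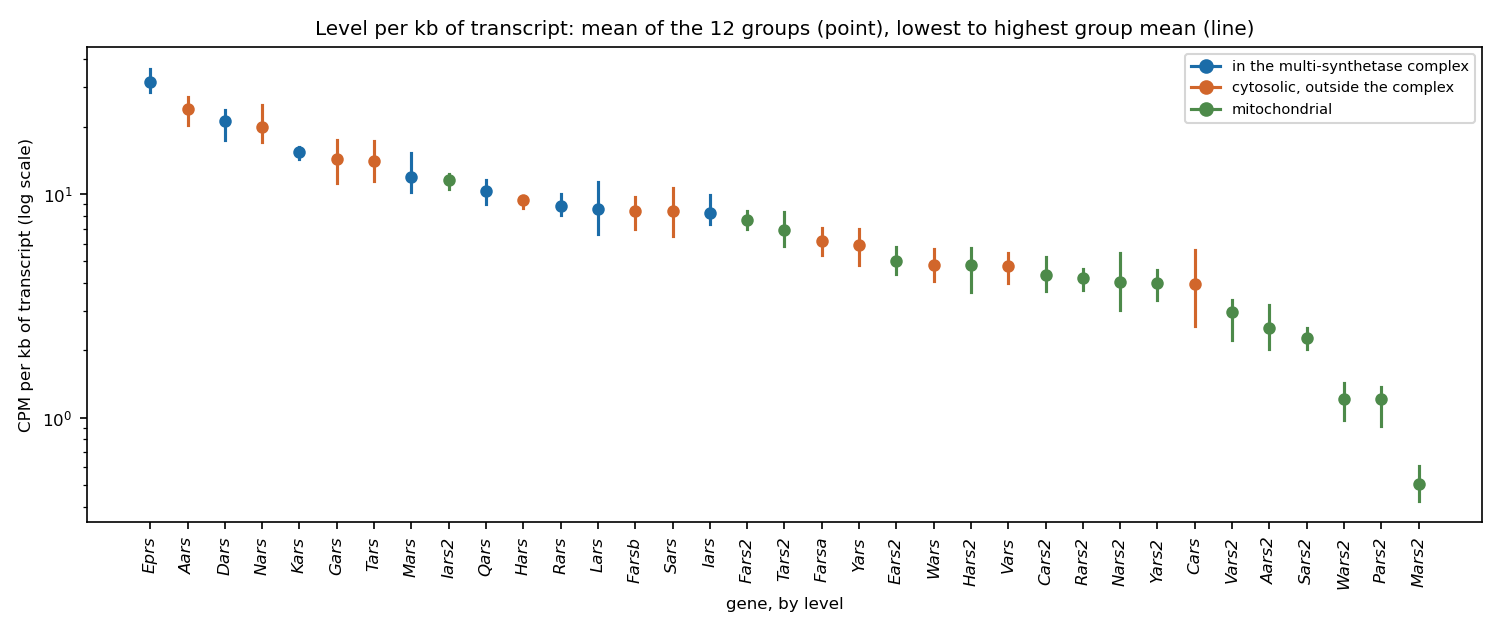
Level of each synthetase gene in CPM per kb of transcript on a log axis, ordered from high to low; points are means of the 12 group means and lines run from the lowest to the highest group mean. Eprs stood at 31.6 and Mars2 at 0.503, and the lines are short beside the spread between genes.

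Between Low Protein and Control, synthetases were called at a share close to that of all genes. In C57BL/6J males, Nars and Farsb, a subunit of the phenylalanine enzyme, rose and Nars2, the mitochondrial asparagine enzyme, fell. In C57BL/6J females Qars, the glutamine enzyme of the complex, fell. In DBA/2J mice of either sex no synthetase passed the test. A gene was called at an adjusted p below 0.05 in the edgeR quasi-likelihood test, adjusted by the Benjamini-Hochberg method over all 19362 genes.

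In C57BL/6J males the call was 3 of 35 synthetases, 2 higher and 1 lower, where 9.78% of all genes tested were called, 4.08% higher and 5.7% lower. The median log2 fold change was 0.02 over the synthetases and 0.01 over all genes. Outside the complex 11 of 12 cytosolic genes had a positive log2 fold change, with a median of 0.14, against 3 of 8 in the complex with a median of -0.04 and 5 of 15 mitochondrial genes with a median of -0.04. When libraries were scaled by their totals alone, all genes had a median that moved by 0.25 on the log2 scale, and the synthetases called became 19 higher and 0 lower, with Nars2 at a log2 fold change of -0.10 and no longer called. Relative to the median of all genes, the synthetase median was 0.01 under either scaling, which is built in because scaling moves all genes of a library together. Without the 4 libraries rich in ribosomal-like RNA, of which 2 are Controls of this comparison, 0 were called higher and 2 lower. They were Nars2 and Fars2, the mitochondrial phenylalanine enzyme, which had a log2 fold change of -0.23 (edgeR adjusted p 0.0321), against -0.16 (0.129) in all libraries. The median over the synthetases was then -0.01. The 9.78% belongs to the TMM fit of all libraries and is no yardstick for the counts with library totals or without the 4 libraries.

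Nars had 53.6, 58.3 and 67.2 CPM (lowest, median and highest) in Low Protein C57BL/6J males, against 46.6, 50.2 and 53.4 CPM in their Controls. Every Low Protein liver was above every Control liver. The log2 fold change was 0.24 ± 0.06 (SE), with an adjusted p of 0.00838 in edgeR. Without the 4 libraries it was 0.19 with an adjusted p of 0.0735, so the call was lost.

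Farsb had 16.4, 19.1 and 20.4 CPM in Low Protein C57BL/6J males, against 14.0, 15.9 and 17.9 CPM in their Controls. The groups overlapped, with the Low Protein livers mostly above. The log2 fold change was 0.23 ± 0.07 (SE), with an edgeR adjusted p of 0.0309, and without those 4 libraries it was 0.17 with an adjusted p of 0.197. Leaving out Control replicate 1, 3 or 4 or Low Protein replicate 2, 4, 5 or 6 also ended the call, with adjusted p-values of up to 0.106. Farsa, the other subunit, had a log2 fold change of 0.11 ± 0.09 (SE) and was not called.

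Nars2 had 12.0, 13.4 and 15.0 CPM in Low Protein C57BL/6J males, against 14.2, 17.7 and 18.9 CPM in their Controls. The groups overlapped at the low end of the Controls. The log2 fold change was -0.33 ± 0.08 (SE), with an edgeR adjusted p of 0.00157, and -0.44 without the 4 libraries. Against Medium Protein males, which had 13.5, 17.0 and 19.0 CPM, Nars2 fell by 0.31 on the log2 scale with an edgeR adjusted p of 0.00436. It was the 1 synthetase called between those diets, where 6.53% of all genes were. Nars and Nars2, the cytosolic and mitochondrial enzymes for asparagine, thus had opposite signs in these males.

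Qars had 23.6, 25.6 and 26.3 CPM in Low Protein C57BL/6J females, against 28.4, 29.0 and 29.7 CPM in their Controls. Every Low Protein liver was below every Control liver. The log2 fold change was -0.20 ± 0.06 (SE), with an edgeR adjusted p of 0.0402. Qars was the 1 synthetase called in these females, where 3.25% of all genes were, and leaving out Control replicate 2, 4 or 5 or Low Protein replicate 2, 4 or 6 ended the call, with adjusted p-values of up to 0.100.

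Between Low Protein and Control, 0 of 35 synthetases were called in DBA/2J males, where 0.093% of all genes were, and 0 in DBA/2J females, where 0.816% were. At an unadjusted p under 0.05 there were 4 and 5, and DESeq2 and limma-voom called 0 in both sexes. All 95% intervals of the log2 fold change lay within 0.56 of 0 in males and 0.71 in females. Cars in DBA/2J females came nearest, with 8.26, 10.9 and 11.3 CPM on Low Protein and 11.4, 14.0 and 14.6 CPM on Control. These groups did not overlap, yet the log2 fold change of -0.41 ± 0.15 (SE) had an edgeR adjusted p of 0.208. Aars2, the mitochondrial alanine enzyme, also had groups apart in DBA/2J males, at 9.82 to 12.9 CPM on Low Protein and 8.16 to 9.51 CPM on Control, with an edgeR adjusted p of 0.561.

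**Figure D2:**
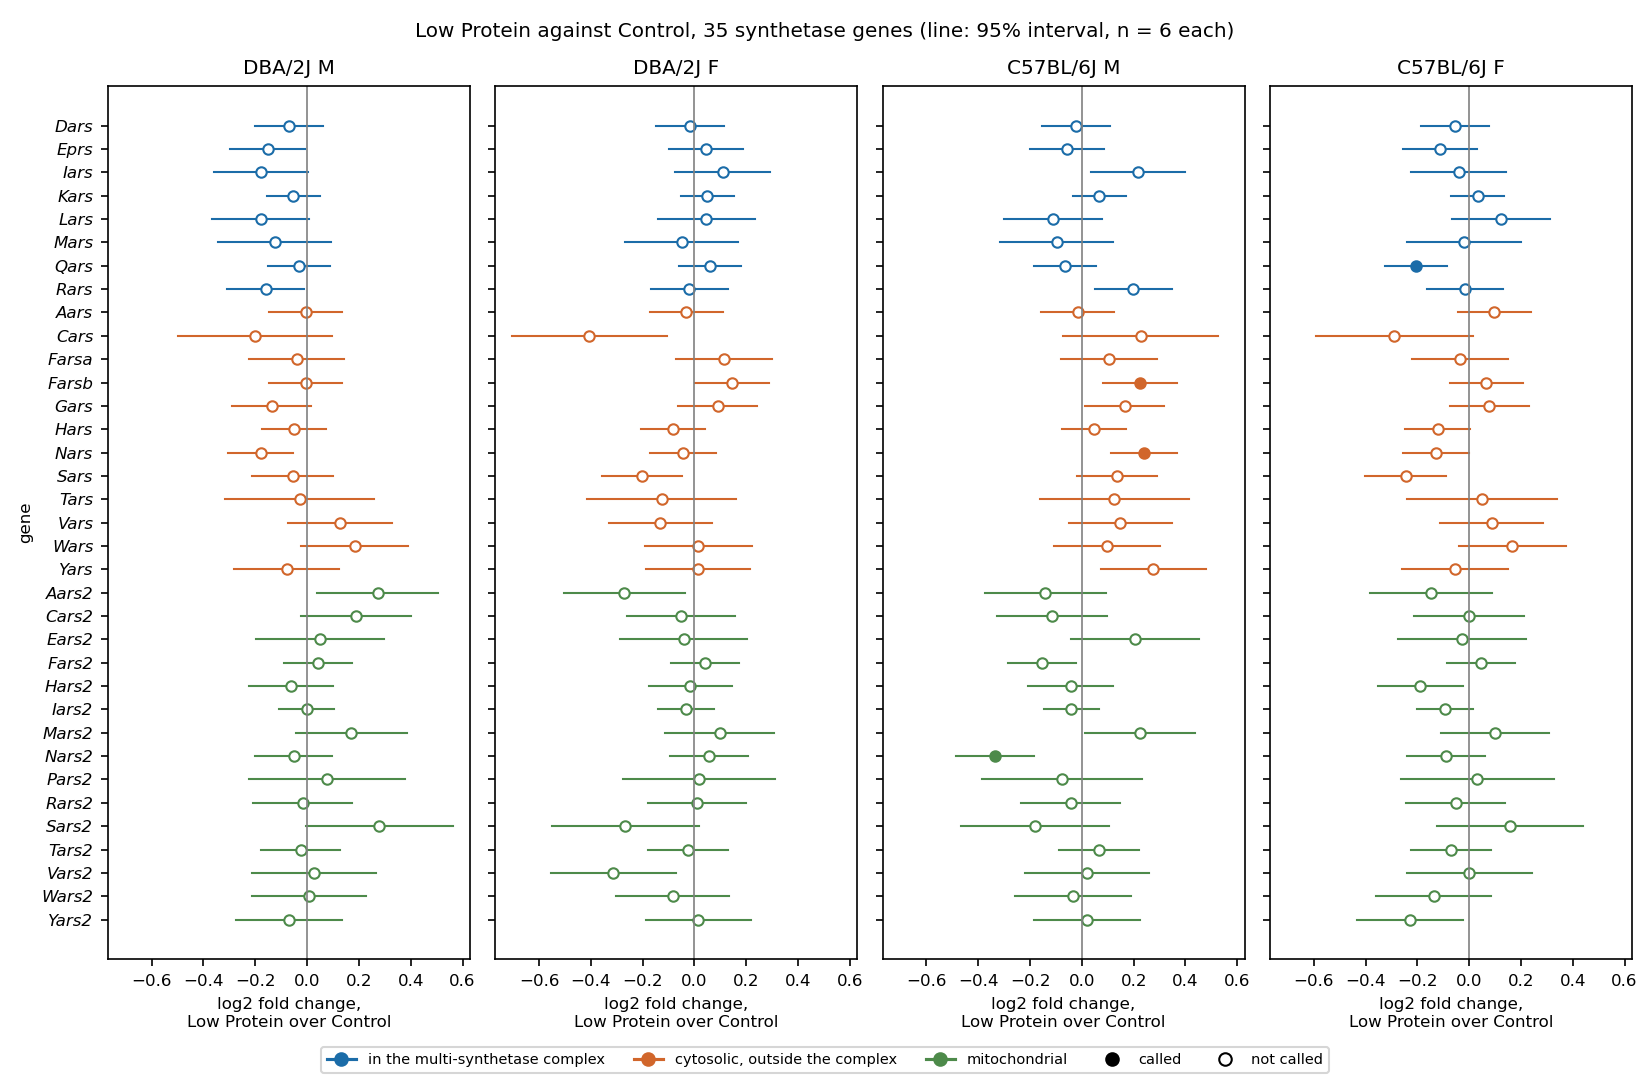
Log2 fold change of Low Protein over Control for 35 synthetase genes (rows) in 4 combinations of strain and sex (panels); lines are 95% intervals and filled points are called genes. Filled points are Nars and Farsb (right of 0) and Nars2 (left) in C57BL/6J males and Qars (left) in C57BL/6J females, and both DBA/2J panels have none.

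Averaged over the 4 combinations, 1 synthetase, Farsb, rose on Low Protein by 0.11 ± 0.04 on the log2 scale (SE; edgeR adjusted p 0.0466), where 8.01% of all genes were called. Without the 4 libraries rich in ribosomal-like RNA the change was 0.09 with an adjusted p of 0.163, and the 1 synthetase called was Nars2, lower at -0.13 (0.0230), against -0.10 (0.0728) in all libraries. Leaving out 1 liver at a time, an alternative chosen after seeing the data, ended the call for 32 of the 48 livers, with adjusted p-values of up to 0.0877. It was kept without Control replicate 5 or Low Protein replicate 1 or 3 of the C57BL/6J males, Control replicate 2, 4, 5 or 6 or Low Protein replicate 1 or 2 of the C57BL/6J females, Control replicate 5 or 6 or Low Protein replicate 1 or 4 of the DBA/2J males, and Control replicate 4 or 6 or Low Protein replicate 5 of the DBA/2J females. No synthetase was called for Medium Protein. Against Control, 0 were called in C57BL/6J males (0.418% of all genes), C57BL/6J females (0% of all genes), DBA/2J males and DBA/2J females (0.00516% of all genes in each) and in the mean over the 4 (0%). At an unadjusted p under 0.05 the counts were 2, 1, 1, 1 and 1. Low Protein against Medium Protein called 0 in C57BL/6J females (1.94% of all genes), DBA/2J males (0%) and DBA/2J females (0.0413%), with 5, 2 and 6 at an unadjusted p under 0.05. DESeq2 and limma-voom also called 0 in each of these 8 comparisons. In the authors' deposited table, at an adjusted p below 0.05, the same 4 genes were called between Low Protein and Control, Nars2 was called between Low Protein and Medium Protein in C57BL/6J males, and no other diet comparison had a synthetase.

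The Low Protein effect itself differed between groups for 3 synthetases. Between the sexes of C57BL/6J, male minus female, 2 of 35 were called where 4.56% of all genes were. They were Nars, at 0.37 ± 0.09 (SE) on the log2 scale with an edgeR adjusted p of 0.0109, and Sars, the serine enzyme, at 0.38 ± 0.11 with 0.0324. Sars had 27.4, 30.4 and 32.4 CPM in Low Protein males and 24.3, 28.1 and 29.2 CPM in Control males. In females it had 20.1, 23.3 and 25.3 CPM on Low Protein and 24.0, 26.02 and 36.3 CPM on Control. Its log2 fold change was 0.14 in males and -0.25 in females, neither of them called. Without Control female replicate 1, the highest of these livers, the difference was 0.29 with an adjusted p of 0.0877, and leaving out Control male replicate 1 or 3, Low Protein male replicate 3, 5 or 6 or Low Protein female replicate 1, 2 or 3 ended the call too. Nars kept its call without any 1 of the 24 livers, at 0.33 to 0.40.

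Between the strains in males, DBA/2J minus C57BL/6J, 2 of 35 were called where 2.88% of all genes were. They were Nars, at -0.42 ± 0.09 (SE; edgeR adjusted p 0.00350), and Rars, the arginine enzyme of the complex, at -0.36 ± 0.10 with 0.0436. Nars had 55.2, 58.3 and 67.5 CPM in Low Protein DBA/2J males and 60.0, 68.8 and 77.9 CPM in their Controls, a log2 fold change of -0.18 that was not called. Rars had 16.5, 18.6 and 21.1 CPM in Low Protein DBA/2J males and 18.4, 20.8 and 24.2 CPM in their Controls, against 18.3, 18.8 and 21.7 CPM on Low Protein and 15.1, 17.0 and 19.1 CPM on Control in C57BL/6J males. Without 1 liver at a time Nars kept its call for all 24 livers, at -0.46 to -0.38. Rars lost its call for 15 of 24, with adjusted p-values of up to 0.106. They were Low Protein replicates 1, 3, 4 and 6 and Control replicates 2, 3, 4 and 6 of DBA/2J, and Low Protein replicates 4, 5 and 6 and Control replicates 1, 3, 5 and 6 of C57BL/6J. In DBA/2J, male minus female, and in females, DBA/2J minus C57BL/6J, 0 synthetases were called, where 0% and 0.093% of all genes were, with 5 and 2 at an unadjusted p under 0.05. DESeq2 and limma-voom called 0 there. Without the 4 libraries rich in ribosomal-like RNA both Nars differences kept their call, at 0.32 and -0.41, while Sars had an adjusted p of 0.0761 and Rars one of 0.135. Nars2 was then called in both, with the sign opposite to Nars, at -0.35 (edgeR adjusted p 0.0475) for male minus female in C57BL/6J and 0.40 (0.0376) for DBA/2J minus C57BL/6J in males. In all libraries these differences were -0.25 and 0.28, with adjusted p-values of 0.182 and 0.134.

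**Figure D3:**
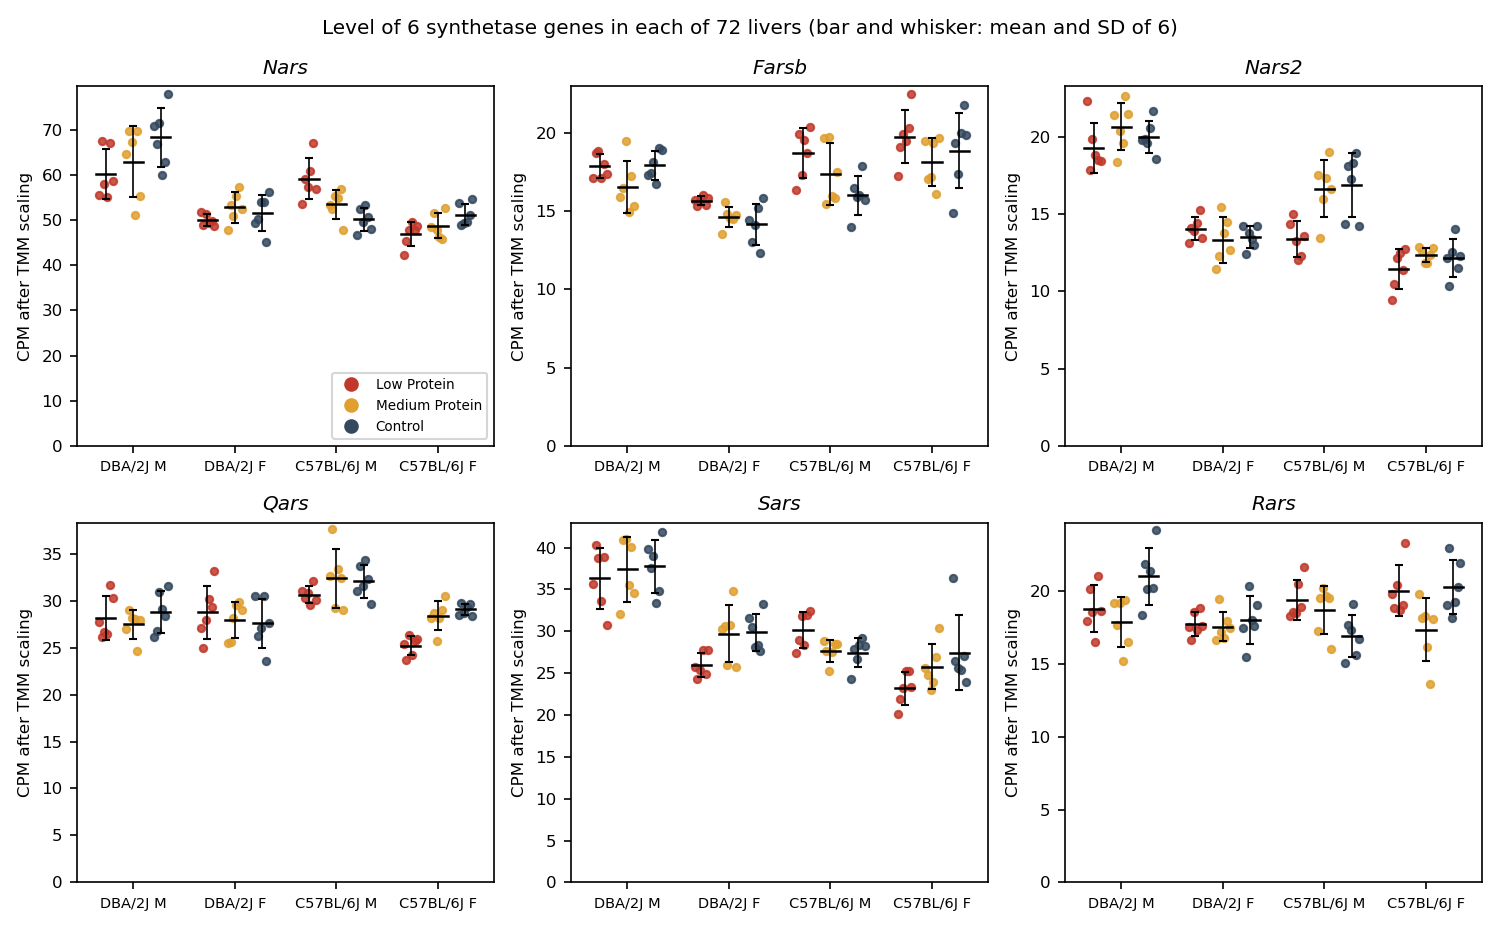
CPM after TMM scaling of Nars, Farsb, Nars2, Qars, Sars and Rars in each liver, by strain and sex (x axis) and diet (colour, Low Protein, Medium Protein and Control from left to right); bars and whiskers are the mean and SD of 6. Nars on Low Protein lies above Control in C57BL/6J males and not in the other 3 combinations, and Nars2 is higher in males than in females on each diet.

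Other genes of the pathway are set beside these from lists on charging and its sensing. In Low Protein C57BL/6J males Asns had 9.65, 17.3 and 25.4 CPM, against 0.321, 0.912 and 2.81 CPM in Controls, with no overlap and a log2 fold change of 3.76 ± 0.60 (SE; edgeR adjusted p 9.11e-06). Atf4 itself had 38.4, 46.0 and 58.3 CPM on Low Protein and 34.4, 52.8 and 54.6 CPM on Control, a log2 fold change of -0.05 that was not called. Of 22 genes of the ATF4 response, 3 rose and 1 fell, where 4.08% of all genes rose and 5.7% fell. Besides Asns, Psat1, which makes serine, rose by 4.09 ± 0.58 and Aldh1l2, a mitochondrial folate enzyme, by 3.16 ± 0.43, while Cth, which makes cysteine, fell by 1.07 on the log2 scale. Over all diets the 18 C57BL/6J males had 0, 0.427 and 8.10 CPM of Psat1 and 0.0357, 0.413 and 3.64 CPM of Aldh1l2. Both genes thus had few reads in many of these livers. Of the 13 synthetases known as ATF4 targets, Nars was the 1 called between Low Protein and Control in C57BL/6J males, near the 9.78% of all genes. The median log2 fold change of these 13 was 0.14, against 0.07 for the other 7 cytosolic ones.

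Among the genes closest to the synthetases, Eef1e1, which sits in the multi-synthetase complex with Aimp1 and Aimp2, rose by 0.44 ± 0.14 (SE) on the log2 scale in Low Protein C57BL/6J males, 1 of those 3. Of 4 subunits of elongation factor 1, which carries charged transfer RNA to the ribosome, Eef1g and Eef1b2 rose. Eef1g had 122, 128 and 134 CPM on Low Protein and 93.8, 99.8 and 111 CPM on Control, with no overlap. Of 9 genes for sensing uncharged transfer RNA, Impact, an inhibitor of GCN2 activation, rose by 0.78 ± 0.10 (edgeR adjusted p 2.20e-07). It had 12.2, 15.7 and 23.8 CPM on Low Protein and 8.22, 9.53 and 11.7 CPM on Control. Of 10 mitochondrial translation genes Mtif3, an initiation factor, fell by 0.33, and of 7 genes for proofreading and selenocysteine 0 were called, with 3 at an unadjusted p under 0.05. Counts of 1 in these short lists are to be read against the 9.78% of all genes called in these males.

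In Low Protein C57BL/6J females, Asns had 1.32, 2.62 and 8.36 CPM, against 0, 0.256 and 7.43 CPM in Controls, which overlapped, and its log2 fold change of 1.36 ± 0.56 (SE) had an edgeR adjusted p of 0.183. The highest Control value was that of replicate 1 alone, and without this liver the log2 fold change was 3.95 with an adjusted p of 1.91e-05. Atf4 had a log2 fold change of -0.14. Where 3.25% of all genes were called, 1 gene was called in each of 4 lists. Of 22 genes of the ATF4 response Aldh1l2 rose by 1.83, of 9 sensing genes Gcn1l1, the partner of GCN2, by 0.41, and of 10 mitochondrial translation genes Qrsl1, a subunit of the enzyme that makes mitochondrial glutaminyl transfer RNA, by 0.76. Of 7 genes for proofreading and selenocysteine Sepsecs, of the selenocysteine pathway, fell by 0.25. The scaffold proteins and elongation factor 1 had 0 called, with 0 and 1 at an unadjusted p under 0.05. In DBA/2J no gene of these lists was called. There the log2 fold change of Asns was -0.42 ± 0.74 (SE) in males and -0.41 ± 1.36 in females. Over all diets Asns had 0.0950, 0.405 and 1.09 CPM in the 18 DBA/2J males. In the 18 DBA/2J females it had 0, 0.0816 and 0.417 CPM, so its fold changes in DBA/2J rest on few reads. The log2 fold change of Atf4 in DBA/2J was -0.08 in males and -0.14 in females.

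Markers of other cells moved with diet in C57BL/6J males. Of 5 red blood cell markers 4 rose, and their summed level had 168, 376 and 476 CPM on Low Protein and 126, 163 and 259 CPM on Control. Of 8 hepatocyte markers 3 fell, with sums of 52350 to 83605 CPM on Low Protein and 58002 to 71047 CPM on Control, and no other marker list had a called gene there. Some lists could hardly give a call. After the filter, 2 of 4 neutrophil, 1 of 8 pancreatic acinar, 1 of 4 adipocyte and 0 of 4 skeletal muscle markers were tested. Pancreatic acinar markers summed to 9.99 CPM in Low Protein male replicate 2, against a median of 0.306 in its group. In C57BL/6J females no marker was called between Low Protein and Control, and macrophage markers summed to 976 CPM in Low Protein replicate 1, against a median of 229 in its group. The part of these cells in the synthetase results was not tested, and in bulk liver fewer cells of a type cannot be told apart from less RNA per cell.

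At the median over the synthetases, strain and sex each took a larger share of the variance than diet did. As a description, the variance of each gene's log2 CPM over the 72 livers was divided in the balanced design. These shares hold on the TMM scale and were not computed with library totals. Over the 35 genes the median share was 13.2% for strain, 15.4% for sex and 1.62% for diet, against 8.68%, 5.11% and 1.90% over all genes tested. Interactions of diet with strain or sex had 5.26%, and 50.8% lay between animals of a group. Of the 35 genes 12 had their largest named share with strain and 15 with sex, and in the other 8 it lay with diet or an interaction. Diet took at most 8.48%, in Kars, the lysine enzyme. Nars2 had the least variance within groups, 14.4%, with 56.3% for sex and 19.9% for strain. Asns, for comparison, had 36.9% for strain, 23.2% for sex, 7.70% for diet and 14.4% for diet interactions.

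**Figure D4:**
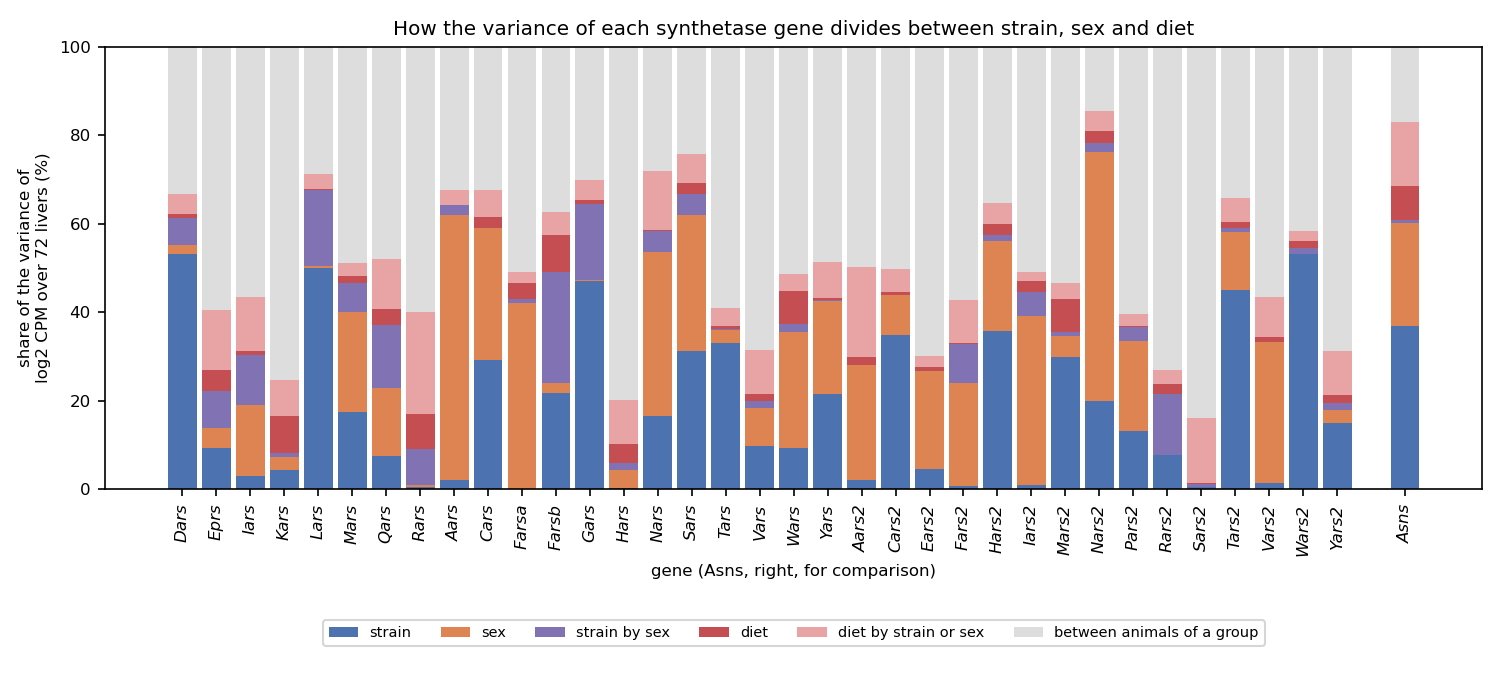
Share of the variance of log2 CPM on the TMM scale over 72 livers (y axis, %) for each synthetase gene (x axis) and Asns. It is divided between strain, sex, diet, their interactions and the animals of a group. Strain and sex together fill most of the part outside the animals of a group in 26 genes, such as 56.3% for sex in Nars2 and 53.1% for strain in Dars, and less in the other 9, while the diet share is at most 8.48% in a synthetase.

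DBA/2J against C57BL/6J, as the mean of the 6 combinations of sex and diet, called 23 of 35 synthetases, 17 higher and 6 lower, where 59.2% of all genes were called, 28.7% higher and 30.5% lower. The share called was thus near that of all genes. With library totals the split was 19 higher and 3 lower, while the shares of all genes just given are those of the TMM scale. The median log2 difference was 0.09 over the synthetases and -0.01 over all genes. Among mitochondrial enzymes 8 were higher and 1 lower, in the complex 3 higher and 2 lower, and among other cytosolic enzymes 6 higher and 3 lower. Markers of other cells also differed, with 5 of 7 T, NK and B cell, 3 of 5 red blood cell, 2 of 2 neutrophil, 2 of 8 macrophage, 2 of 6 endothelial and 2 of 5 cholangiocyte markers lower in DBA/2J, and 1 red blood cell and 1 endothelial marker higher. Of 7 stellate and matrix markers 3 were higher and 3 lower, and of 8 hepatocyte markers 3 were higher and 3 lower. Cholangiocyte markers summed to 8.24 to 17.9 CPM in DBA/2J and 16.9 to 61.6 CPM in C57BL/6J, and their part in the synthetase differences was not tested.

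Cars had 8.26, 14.2 and 22.0 CPM in the 36 DBA/2J livers, against 7.10, 10.2 and 21.3 CPM in the 36 C57BL/6J livers. The ranges overlapped widely. The log2 difference was 0.45 ± 0.06 (SE; edgeR adjusted p 3.09e-09). It had the same sign in 6 of 6 combinations, as did Lars, the leucine enzyme of the complex, at 0.40 ± 0.04, and Wars2, the mitochondrial tryptophan enzyme, at 0.39 ± 0.05. Tars at 0.37 and Gars at 0.30 followed. Dars ran the other way, with 35.5, 41.9 and 49.6 CPM in DBA/2J and 39.2, 50.7 and 58.2 CPM in C57BL/6J. Its log2 difference was -0.26 ± 0.03 (SE; edgeR adjusted p 2.46e-13) and that of Mars2 -0.25 ± 0.04, both lower in DBA/2J in 6 of 6 combinations.

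Males against females, as the mean of 6 combinations of strain and diet, called 21 of 35 synthetases, 20 higher and 1 lower, where 50.4% of all genes were called, 25.3% higher and 25.1% lower. The split depends on scaling. With library totals the median of all genes moved by -0.23 on the log2 scale and the synthetases became 2 higher and 19 lower. The shares of all genes just given are those of the TMM scale. Relative to the median of all genes, the synthetase median was 0.14 higher in males under either scaling. Scaling moves all genes of a library together, so this agreement is built in and is no test of the direction. The directions below hold on the TMM scale. In this contrast all 8 macrophage markers and 6 of 7 T, NK and B cell markers were lower in males and all 5 red blood cell markers were higher. With library totals these counts were 8, 7 and 4. On the TMM scale 4 of 8 hepatocyte markers were higher in males and 3 lower, and of 7 stellate and matrix markers 2 were higher and 2 lower. Higher in males were also 1 of 6 endothelial markers, 1 of 5 cholangiocyte markers and the 1 adipocyte marker tested. Macrophage markers summed to 108 to 418 CPM in males and 173 to 976 CPM in females, T, NK and B cell markers to 0.706 to 5.96 CPM in males and 2.17 to 15.1 CPM in females, and red blood cell markers to 126 to 476 CPM in males and 44.5 to 194 CPM in females. Their part in the synthetase differences was not tested.

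Nars2 had 12.0, 18.4 and 22.6 CPM in 36 males, against 9.43, 12.7 and 15.4 CPM in 36 females. Most males lay above most females, and the log2 difference was 0.47 ± 0.03 (SE; edgeR adjusted p 5.22e-21), with males higher in 6 of 6 combinations. Aars, the alanine enzyme, had 129, 152 and 181 CPM in males and 103, 125 and 145 CPM in females, a difference of 0.30 ± 0.03 with the same sign in 6 of 6. Cars had a difference of 0.47 ± 0.06, Vars2 (mitochondrial valine) one of 0.28 ± 0.05 and Sars and Farsa one of 0.27 each. Pars2, the mitochondrial proline enzyme, was the 1 lower gene, with 1.36, 2.28 and 3.59 CPM in males and 2.14, 2.86 and 3.75 CPM in females. Its difference was -0.26 ± 0.06 (SE; edgeR adjusted p 2.63e-04), with females higher in 6 of 6 combinations.

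**Figure D5:**
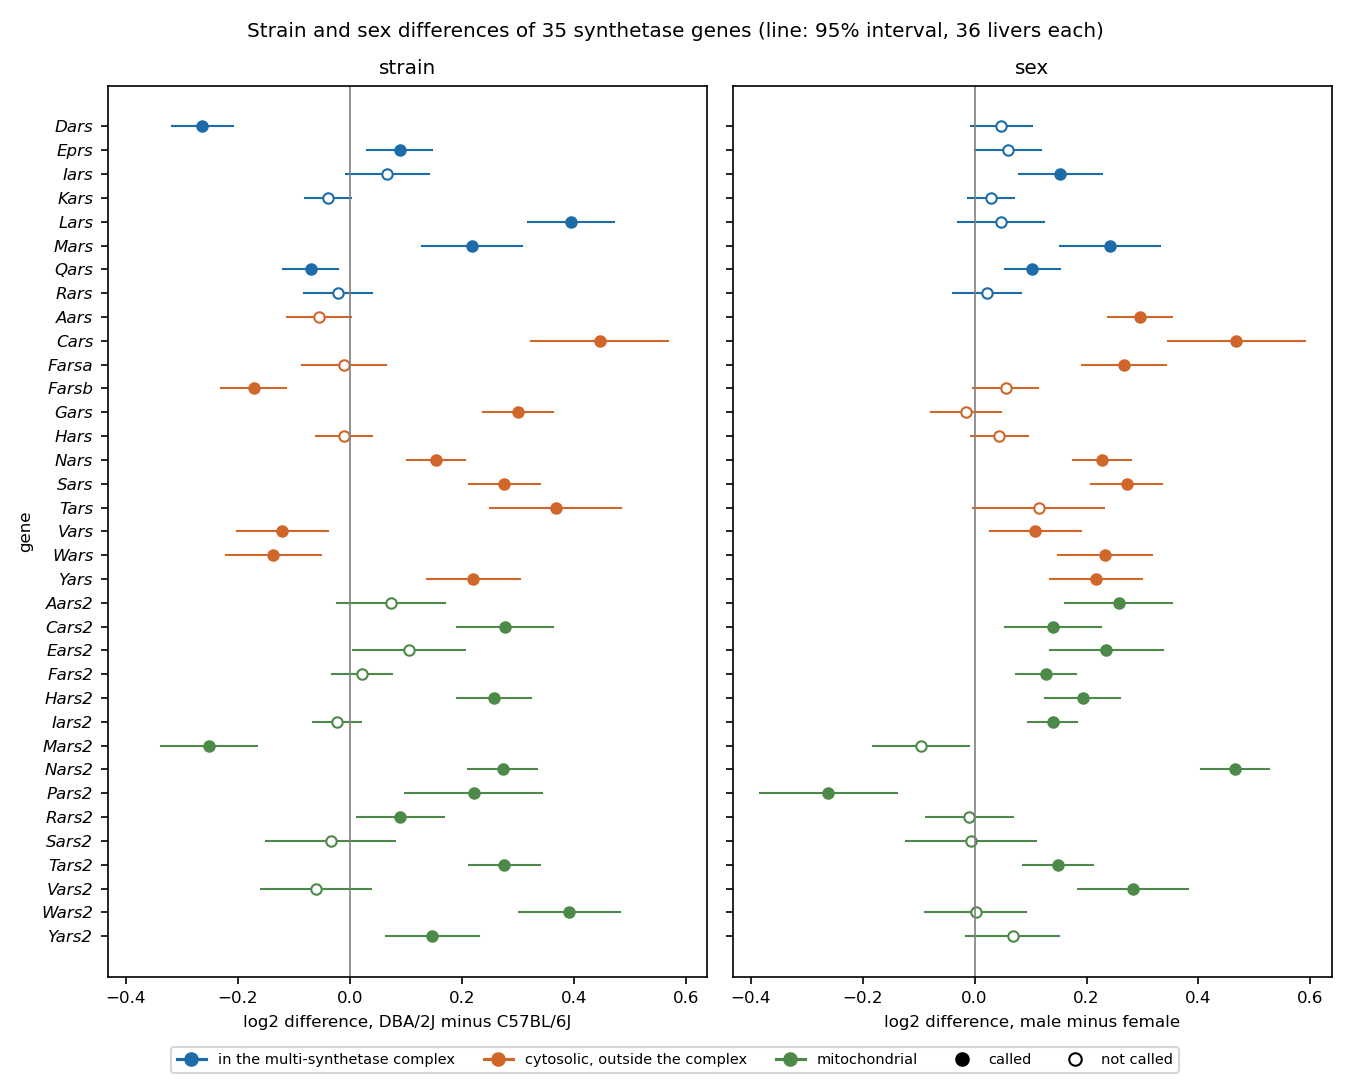
Log2 difference of DBA/2J minus C57BL/6J (left) and male minus female (right) for 35 synthetase genes, each as the mean of 6 combinations on the TMM scale; lines are 95% intervals and filled points are called. On the left 17 filled points are positive and 6 negative, and on the right 20 are positive and 1, Pars2, is negative; with library totals the right panel would hold 2 positive and 19 negative calls.

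The sex difference itself differed between the strains for part of the genes. The contrast of DBA/2J minus C57BL/6J, male minus female, called 14 of 35 synthetases, 13 higher and 1 lower, where 20.2% of all genes were called, 9.94% higher and 10.3% lower. Of the 8 genes of the complex 6 were higher and 1 lower, which became 2 higher and 1 lower with library totals and 3 higher and 1 lower without the 4 libraries rich in ribosomal-like RNA. Eprs, Mars, Rars, Fars2 and Nars2 lost the call under both, with edgeR adjusted p-values of 0.0584 (Eprs), 0.0705 (Mars), 0.0916 (Rars), 0.0860 (Fars2) and 0.114 (Nars2) without the 4 libraries, and Dars and Nars lost it with library totals alone. Lars had the largest value, 0.47 ± 0.08 (SE; edgeR adjusted p 4.65e-06). It had 35.2, 42.2 and 51.7 CPM in DBA/2J males and 31.3, 34.2 and 40.2 CPM in DBA/2J females, and 21.1, 26.9 and 33.5 CPM in C57BL/6J males and 21.6, 31.5 and 36 CPM in C57BL/6J females. The male median was thus above the female one in DBA/2J and below it in C57BL/6J.

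Farsb and Gars followed at 0.36 each. Farsb had a median of 17.3 CPM in DBA/2J males and 15.0 CPM in DBA/2J females, and of 16.9 CPM in C57BL/6J males and 19.4 CPM in C57BL/6J females. Qars was the 1 lower gene, at -0.20 ± 0.05 (edgeR adjusted p 0.00155). It had a median of 28.01 CPM in DBA/2J males and 28.04 CPM in DBA/2J females, and of 31.3 CPM in C57BL/6J males and 28.3 CPM in C57BL/6J females. With library totals 7 synthetases were called, and without the 4 libraries 9 were. The share of all genes given for this contrast is that of the TMM fit of all libraries. In the same contrast 4 of 7 stellate and matrix markers, 2 of 8 macrophage, 2 of 6 endothelial, 2 of 5 cholangiocyte and 1 of 5 red blood cell markers were higher, and 1 of 7 T, NK and B cell markers was lower. Stellate and matrix markers summed to a median of 474 CPM in DBA/2J males and 453 CPM in DBA/2J females, and 326 CPM in C57BL/6J males and 384 CPM in C57BL/6J females. Their part in the synthetase differences was not tested.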

How the data were processed

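Per the labels, poly(A) RNA was made into stranded libraries and each library ran on several lanes, with reads merged before quantification. The deposited table holds RSEM expected counts per gene, and the submitters' processing notes also name edgeR, limma and R 3.4.3; other versions, the aligner, the genome build and the annotation were not given in those sources. For each gene the authors' deposited table of diet comparisons gives log2 fold changes with raw and adjusted p-values, and a score, the F statistic, that was not used.

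Expected counts, of which 11.6% were not whole, were rounded. In R 4.3.3, edgeR 4.0.16 with TMM factors fitted the 12 group means over all 72 libraries to the 19362 genes that filterByExpr kept. There were 21 two-sided contrasts, each adjusted by Benjamini-Hochberg over all genes, with calls at 0.05. SE was the log2 fold change over the root of its F. Alternatives used DESeq2 1.42.0, limma 3.58.1 (voom), other scalings and filters, the row letter of the code in the labels as a term, and left-out libraries. The number in that code runs with the order of the groups and was not used as a term. Its part cannot be told apart from that of strain, sex and diet. The counts test was checked on simulated data with planted changes larger than the diet changes called for synthetases. That check does not show how well changes of the smaller size are found. Levels per kb divide by the longest principal transcript of GENCODE M21, with all its exons. The p-values measure spread between animals and assume that each library is 1 animal. They also treat animals as independent, including those whose codes share a number. Depth limits low genes most, and the SE of a synthetase's diet contrast had a median of 0.09 on the log2 scale. The 35 members and all gene lists were chosen with earlier results of these data known. Any synthetase could be named, with group values for those called, and up to 4 called genes of each other list, with Asns and Atf4 always named.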

Additional observations from a re-analysis of the deposited data

Results flagged for a closer look

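The Low Protein effect differed between groups, by a test of the difference itself, for Nars (0.37, male minus female in C57BL/6J, and -0.42, DBA/2J minus C57BL/6J in males), Sars (0.38, male minus female in C57BL/6J) and Rars (-0.36, DBA/2J minus C57BL/6J in males), all on the log2 scale. Sars and Rars lost that call without the 4 libraries rich in ribosomal-like RNA. The sex difference, DBA/2J minus C57BL/6J, differed by the same kind of test for 14 synthetases. In the complex the values were 0.18 for Dars, 0.17 for Eprs, 0.26 for Iars, 0.47 for Lars, 0.26 for Mars, 0.18 for Rars and -0.20 for Qars. Among other cytosolic enzymes they were 0.36 for Farsb, 0.36 for Gars, 0.16 for Nars and 0.22 for Sars, and among mitochondrial ones 0.15 for Fars2, 0.17 for Nars2 and 0.26 for Rars2. Of these Eprs, Mars, Rars, Fars2 and Nars2 lost the call both with library totals and without the 4 libraries rich in ribosomal-like RNA, and Dars and Nars with library totals.

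A single liver stood apart from the other 5 of its group in 6 of 96 gene and group combinations examined, over 8 genes, by the gap between it and its nearest neighbour. Chance flags about 1 in 20 groups. In Control C57BL/6J females, replicate 1 had 7.43 CPM of Asns, against at most 0.490 in the others, and 36.3 CPM of Sars, against at most 27.1. Replicate 3 of Medium Protein C57BL/6J males had 25.2 CPM of Sars, against 27.5 or more in the others. Replicate 6 of Low Protein C57BL/6J females had 23.4 CPM of Rars, against at most 20.5. Replicate 2 of Low Protein DBA/2J males had 0.979 CPM of Asns, against at most 0.406. Replicate 1 of Low Protein DBA/2J females had 15.6 CPM of Impact, against at most 14.5.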

How the results depend on the processing

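Of 68 single synthetase calls over the 21 comparisons, all 68 kept their direction and side of the threshold with RLE factors, with DESeq2 and with a filter of at least 1 CPM in 6 libraries. With the row letter as a term 67 did, with limma-voom 67, without the 4 libraries rich in ribosomal-like RNA 58, without a filter 57 and with library totals 37, and 2 of 5 did with the compared groups only. Library totals moved 7 counts of called synthetases by over 1.5 times, to 19 and 0 for Low Protein against Control in C57BL/6J males and females, 10 against Medium Protein in C57BL/6J males and 4 in the mean over the 4 combinations. They changed them to 13 and 6 for the differences of the Low Protein effect (male minus female in C57BL/6J, DBA/2J minus C57BL/6J in males) and to 7 for the strain by sex contrast. With library totals 10 sex differences changed sign, on the log2 scale to -0.080 for Iars, -0.13 for Qars, -0.0050 for Nars, -0.13 for Vars, -0.016 for Yars, -0.093 for Cars2, -0.11 for Fars2, -0.041 for Hars2, -0.093 for Iars2 and -0.086 for Tars2. That scaling leaves out the composition factors. Every share of all genes called that is given above is from the TMM fit of all libraries.

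For Low Protein against Control in C57BL/6J females the count was 2 with DESeq2, 0 with no filter and 0 with the compared groups only, which also gave 0 against Medium Protein in C57BL/6J males. With no filter it was 0 for the mean over the 4 combinations and 1 for each of the same differences of the Low Protein effect, and limma-voom gave 1 for the strain difference in males. Without the 4 libraries rich in ribosomal-like RNA the strain by sex contrast had 9. The cause of these changes was not tested. With each library left out in turn, Low Protein against Control called 2 to 3 synthetases in C57BL/6J males and 0 to 2 in C57BL/6J females, and 0 in DBA/2J of either sex. It was 0 to 2 for the mean over the 4 combinations, 1 to 2 against Medium Protein in C57BL/6J males, and 1 to 2 (male minus female in C57BL/6J) and 1 to 3 (DBA/2J minus C57BL/6J in males) for the differences of the Low Protein effect. In C57BL/6J males Nars and Nars2 were called without any 1 of the 12 livers, with log2 fold changes of 0.20 to 0.28 and -0.38 to -0.30. No paired analysis was possible because the animal codes in the labels differ between the diets and the replicate numbers were given in accession order.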

Other observations

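One liver on the Control diet, replicate 1 of the C57BL/6J females, was high in several charging and amino acid genes at once. It was chosen after its values were seen, so no test is given. Psat1 was 3.70 CPM there, against 0.0919 to 0.575 CPM in the other 5 livers of the group, and Asns was 7.43 CPM, against 0 to 0.490. Among synthetases Cars was 16.1 CPM, against 8.05 to 9.60, Tars was 64.8 CPM, against 38.4 to 48.4, and Sars was 36.3 CPM, against 24.0 to 27.1. Of the 20 cytosolic synthetases 8 were highest of the group in this liver and 4 were lowest. That count of highest genes is not particular to it, as over the livers of all groups it ran from 0 to 12. Atf4 was 53.2 CPM, against 28.9 to 40.5. Without this liver the log2 fold change of Asns between Low Protein and Control in these females was 3.95, with an edgeR adjusted p of 1.91e-05, against 1.36 and 0.183 with it.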
